A study of Saccharomyces cerevisiae with 6 samples.

Results

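The cytosolic chaperonin TRiC, also called CCT, is built from 8 related subunits, and the genes TCP1 and CCT2 to CCT8 that encode them in budding yeast are described here. All 8 had a probe set with a gene symbol, 1 each, among 5449 Saccharomyces cerevisiae genes on the array. They were chosen by name and not by any measured value. The 6 cultures came from strain JJ816, which lacks both chromosomal genes for the chaperone Hsp90, HSC82 and HSP82, so that a plasmid carried the only copy. In 3 cultures that copy was hsc82-W296A, a mutant form of Hsc82, and in 3 cultures it was wild type (WT Hsc82). Deletion of both chromosomal genes was thus shared by the 2 groups. Cells grew overnight in rich medium at 30 °C, were collected in exponential phase at an optical density of 0.5, and gave total RNA for 1 Affymetrix array per culture. The study asked how gene expression differs when mutant Hsp90 is the only Hsp90 of the cell, and the labels call the cultures biological replicates.

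TRiC is a barrel of stacked rings, each ring holding 1 copy of every subunit, that encloses newly made proteins and folds them in cycles driven by ATP. Actin and the tubulins depend on it, as do many proteins with WD40 repeats, and each subunit gene is essential in yeast. Prefoldin and phosducin-like proteins deliver substrates to the chaperonin or help in their folding, and Hsp70 chaperones at the ribosome act upstream of it. The subunits share an ATP-binding design but differ in the surface that meets substrates. In biochemical work TCP1, CCT2, CCT4 and CCT5 bind and use ATP strongly, and CCT3, CCT6, CCT7 and CCT8 do so weakly.

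Transcripts of 5 subunits, CCT2, CCT3, CCT4, CCT7 and CCT8, fell in hsc82-W296A, and 0 rose (limma), nor was any higher at an unadjusted p under 0.05. The 5 decreases were modest, between 11.2% and 19.4% of the WT Hsc82 signal. TCP1, CCT5 and CCT6 did not pass the test on the deposited values. Over all 5498 S. cerevisiae probe sets, 30.2% were called lower and 36.9% higher (limma, adjusted p under 0.05), beside 62.5% of the subunits lower. Among the 568 probe sets in the signal range of the subunits, the shares were 45.1% lower and 28.2% higher, nearer to that of the subunits. The median change of the 8 subunits was -0.18 on the log2 scale (hsc82-W296A minus WT Hsc82), and that of all probe sets was 0.04. Counts of subunits called lower depended on the scaling, at 8 after anchored scaling, 7 after median centring and 6 after quantile normalization, and the 5 genes named first were called lower in each of these. Anchored scaling here means that each array was stretched until its median over S. cerevisiae probe sets and its median over those of another species matched the average array. In these 3 settings 40.7%, 42.4% and 44.5% of all S. cerevisiae probe sets were called lower. These shares cover all signal levels, and the share at the signal of the subunits was not computed there. Anchored scaling also lowered other bright genes, with ACT1 going from 0.10 to -0.25 and HSC82 from 0.26 to -0.09. The count of 8 is thus not particular to the subunits. All values are log2 signal as deposited, and changes carry the standard error (SE) of the limma fit with n = 3 arrays per group.

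The subunits that bind ATP strongly included the largest decrease. CCT2 read 13.06, 12.97 and 12.98 in the hsc82-W296A cultures, against 13.34, 13.26 and 13.34 in the WT Hsc82 cultures. The groups were 0.195 apart at their nearest arrays, more than the SD of 0.0515 in hsc82-W296A and 0.0484 in WT Hsc82. The change was -0.31 (SE 0.049, adjusted p = 0.00134 by limma), or a signal 19.4% lower in hsc82-W296A. CCT2 encodes the beta subunit.

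CCT4, the delta subunit, showed the tightest replicates of the 8. It read 12.99, 12.97 and 12.98 in hsc82-W296A, against 13.15, 13.17 and 13.17 in WT Hsc82, with an SD of 0.00758 and 0.0123. Every mutant array lay below every WT array. The change was -0.18 (SE 0.038, adjusted p = 0.00476 by limma).

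Neither of the other subunits on this side was called lower. TCP1, the alpha subunit after which the complex is named, read 13.03, 13.00 and 13.00 in hsc82-W296A and 12.98, 13.04 and 13.06 in WT Hsc82. The groups overlapped, and the mutant arrays lay inside the range of the WT ones. Its change was -0.017 with a 95% interval of -0.12 to 0.08 (adjusted p = 0.730 by limma), an interval that does not reach the change of CCT2. TCP1 passed as lower after anchored scaling, at -0.27, and after median centring, at -0.13, but stood at 0.029, not called, when a trend with signal was removed. CCT5, the epsilon subunit, read 13.14, 13.25 and 13.21 in hsc82-W296A, against 13.23, 13.32 and 13.34 in WT Hsc82. The highest mutant array thus overlapped the lowest WT array by 0.02. The change of -0.10 (95% interval -0.23 to 0.03, adjusted p = 0.134 by limma) did not pass, and it passed as lower under each of the 3 other scalings, from -0.14 to -0.37.

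**Figure D1:**
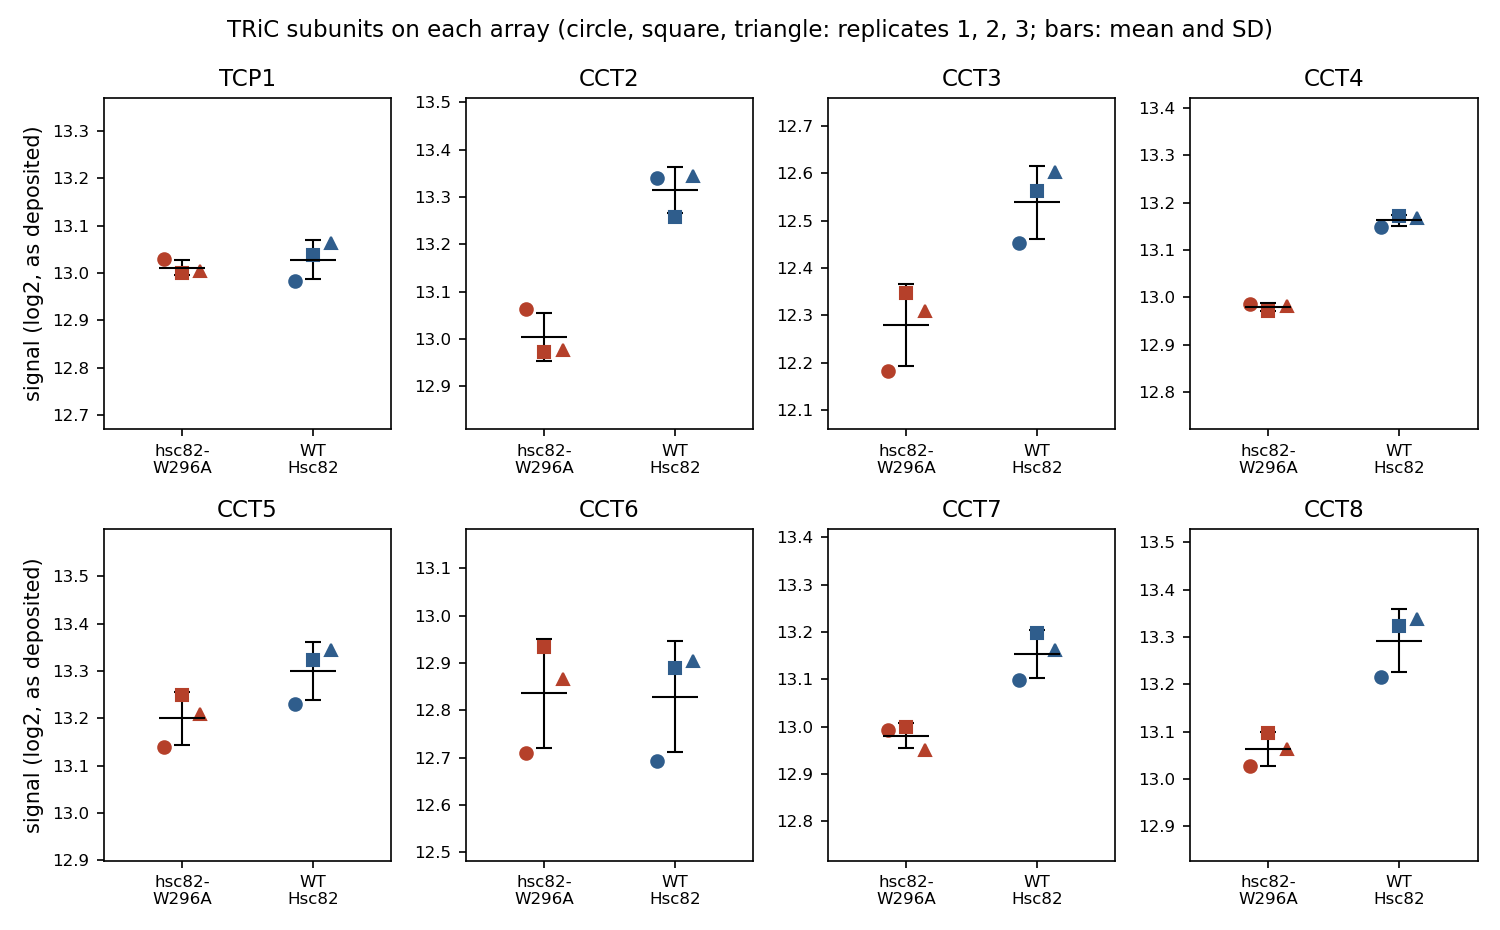
Signal of each TRiC subunit (y axis, log2 as deposited, each panel spanning 0.7) on the 3 hsc82-W296A arrays (left, red) and the 3 WT Hsc82 arrays (right, blue), with horizontal bars at the group means and error bars of 1 SD. In CCT2, CCT3, CCT4, CCT7 and CCT8 the groups do not overlap and hsc82-W296A is lower, while in TCP1, CCT5 and CCT6 they overlap.

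Among the subunits that bind ATP weakly, 3 of 4 fell. CCT3, the gamma subunit, read 12.18, 12.35 and 12.31 in hsc82-W296A, against 12.45, 12.56 and 12.60 in WT Hsc82. Its groups did not overlap although its replicates were spread widely, with an SD of 0.0865 and 0.0772. The change was -0.26 (SE 0.064, adjusted p = 0.0100 by limma). CCT8, the theta subunit, read 13.03, 13.10 and 13.06 in hsc82-W296A and 13.22, 13.32 and 13.34 in WT Hsc82, a change of -0.23 (SE 0.050, adjusted p = 0.00614 by limma). The nearest arrays of its groups were 0.118 apart. CCT7, the eta subunit, read 12.99, 13.00 and 12.95 in hsc82-W296A and 13.10, 13.20 and 13.16 in WT Hsc82, a change of -0.17 (SE 0.045, adjusted p = 0.0134 by limma). The call on CCT7 was the least stable of the 5. It ended without WT Hsc82 replicate 2 (adjusted p = 0.0584) and without hsc82-W296A replicate 3 (adjusted p = 0.0533), with changes of -0.15 and -0.16.

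CCT6, the zeta subunit, did not pass the test, and neither did TCP1 and CCT5. It read 12.71, 12.93 and 12.87 in hsc82-W296A and 12.69, 12.89 and 12.90 in WT Hsc82. The groups overlapped fully, and the change was 0.0070 with a 95% interval of -0.19 to 0.20 (adjusted p = 0.944 by limma). The interval was the widest of the 8, because CCT6 varied most between cultures of one group, with an SD of 0.115 and 0.118. A fall as large as that of CCT2 lay outside it, whereas one as large as that of CCT4 lay inside. Its sign turned negative with anchored scaling, at -0.23, where it passed as lower, and with median centring, at -0.11, and quantile normalization, at -0.016, where it did not pass.

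Taken by ATP use, the strong side had a median change of -0.14 with 2 of 4 genes called lower, and the weak side -0.20 with 3 of 4. Each side held a gene called lower and one that was not, so this division, which was drawn after the values were seen, did not separate the genes that passed from those that did not.

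**Figure D2:**
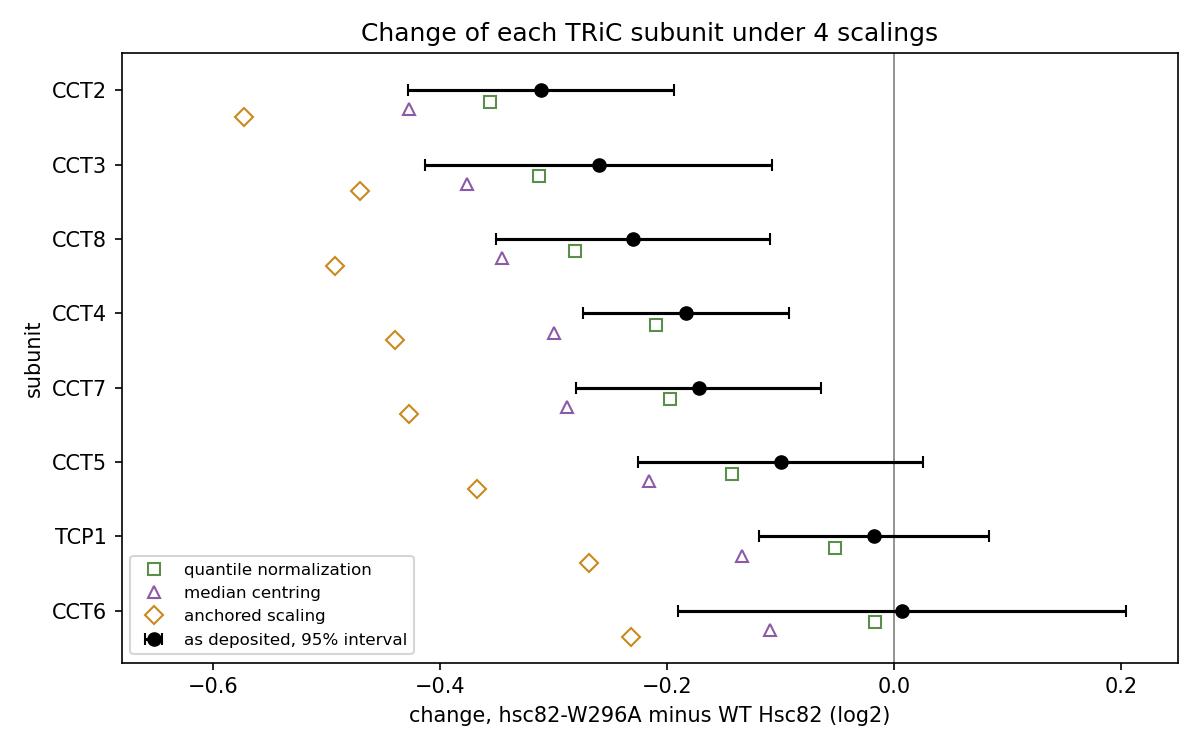
Change of each TRiC subunit (x axis, hsc82-W296A minus WT Hsc82, log2; subunits on the y axis, the lowest change at the top), with black points and 95% intervals for the values as deposited and open symbols for 3 other scalings. CCT2 lies lowest under all 4 scalings shown, at -0.31 as deposited, and CCT6 highest, at 0.0070 as deposited and -0.23 after anchored scaling.

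The position of a subunit among its partners was also read within each array, as its signal minus the mean of the other 7. A positive difference between groups then means that the subunit lost less signal in hsc82-W296A than its partners did. TCP1 shifted by 0.16 relative to its partners, with offsets of 0.16, 0.06 and 0.10 in hsc82-W296A and -0.04, -0.07 and -0.06 in WT Hsc82. CCT6 shifted by 0.19, with offsets of -0.21, -0.01 and -0.06 in hsc82-W296A and -0.37, -0.24 and -0.24 in WT Hsc82. CCT5 shifted by 0.07 in the same direction. For these 3 the groups did not overlap, nor did they for CCT3, at -0.12, and CCT8, at -0.08. Each of the 5 had p = 0.1 in an exact two-sided permutation test, the smallest that 3 against 3 arrays allow, and p = 0.16 adjusted over the 8 subunits. CCT2, at -0.17, had exact p = 0.2, since 1 of its mutant arrays lay above 1 of its WT arrays. CCT4 and CCT7 moved with the mean of their partners, at -0.03 (exact p = 0.5) and -0.02 (exact p = 0.7). How often such offsets do not overlap among other genes was not computed. On plain signal, the groups did not overlap in 34.1% of all probe sets with hsc82-W296A lower and in 39.4% with it higher. Lack of overlap is thus common on these arrays.

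The mean over the 8 subunits was 12.89, 12.95 and 12.92 in hsc82-W296A, against 13.02, 13.10 and 13.12 in WT Hsc82. The groups did not overlap, at 12.92 ± 0.0275 in hsc82-W296A and 13.08 ± 0.0504 in WT Hsc82 (SD, n = 3 arrays each), a difference of -0.16. Across all probe sets, the groups did not overlap in 34.1% with hsc82-W296A lower and in 39.4% with it higher. These shares are for single probe sets, and the share for means of 8 genes was not computed. Arrays read RNA pooled from a culture, so less transcript per cell and fewer cells with the transcript cannot be told apart.

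Cultures of one group differed in a way that some subunits shared. CCT3, CCT5, CCT6 and CCT8 had their lowest value of the group on the arrays numbered 1 in both genotypes. The median over all S. cerevisiae probe sets was also lowest there, at 11.07 in hsc82-W296A and 10.94 in WT Hsc82. A low array 1 is thus not particular to these subunits. The share of all probe sets that were lowest on array 1 in both groups was not computed. CCT6 deviated from its group mean by -0.13 on array 1 of hsc82-W296A and by -0.14 on array 1 of WT Hsc82, and CCT3 by -0.10 and -0.09. CCT2 went the other way on these arrays, at 0.06 and 0.03. Deviations from the group means correlated from -0.69 (CCT2 with CCT6) to 0.995 (CCT5 with CCT6) over the 28 pairs of subunits, with a median of 0.47, a description over 6 arrays that share their scaling. Without the arrays numbered 1 of both groups, an alternative added after the values were seen, the same 5 subunits were called lower, and CCT5 and CCT6 again were not. The 5 calls also held with the replicate number as a block.

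**Figure D3:**
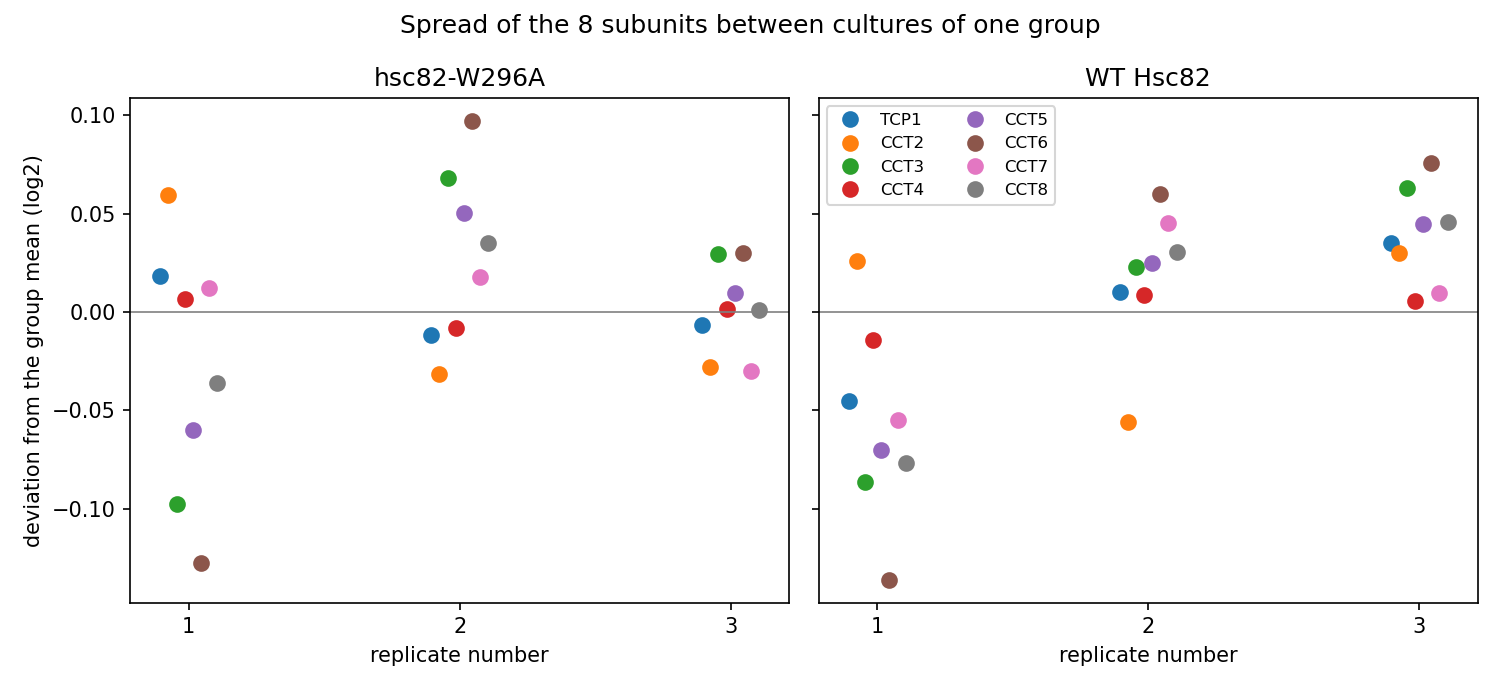
Deviation of each TRiC subunit from its group mean (y axis, log2) by replicate number (x axis), for hsc82-W296A (left) and WT Hsc82 (right), 1 colour per subunit. On the arrays numbered 1, CCT6 is the lowest point in both groups, at -0.13 and -0.14, and CCT2 the highest, at 0.06 and 0.03.

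All 8 subunits stood well clear of background. Their mean signals lay 4.27 to 5.11 above the level of 8.14 under which 95% of the probe sets for another species on the array fell, and below the highest values of 14.79 to 14.93 on an array. Whether signal is compressed at this height was not tested. Among the 568 S. cerevisiae probe sets with a mean signal in the range of the subunits, 12.41 to 13.25, 45.1% were called lower and 28.2% higher, with a median change of -0.09. The middle of the S. cerevisiae probe sets was higher on each hsc82-W296A array, at 11.07 to 11.13, than on any WT Hsc82 array, at 10.94 to 11.04, and that of the other species was lower, at 6.38 to 6.46 against 6.52 to 6.70. This spread of the scale moved with the genotype, and its part in the small changes given here cannot be told apart from it. HSC82 itself read 14.54 ± 0.0156 in hsc82-W296A and 14.28 ± 0.0348 in WT Hsc82 (SD, n = 3), a change of 0.26 that was -0.09, not called, after anchored scaling. Its probes do not show which form the plasmid carried. HSP82, though deleted, still read 10.31 in hsc82-W296A and 10.03 in WT Hsc82. Transcript of the near-identical HSC82 can bind its probes, but whether it did so here was not tested.

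Prefoldin, the complex that hands actin and tubulin to TRiC, had 6 of 6 genes called lower, where 30.2% of all probe sets were. The median change of the 6 was -0.36. All 6 were called lower under anchored scaling, median centring and quantile normalization too. In these settings 40.7%, 42.4% and 44.5% of all probe sets were lower. With the trend on gene length removed 5 of 6 were, PAC10 standing at -0.19 (adjusted p = 0.0710 by limma), and 5 of 6 were without moderation, without WT Hsc82 replicate 1 or without WT Hsc82 replicate 3. GIM4 read 10.80 ± 0.0664 in hsc82-W296A and 11.44 ± 0.00943 in WT Hsc82, a change of -0.64 (adjusted p = 4.67e-05 by limma). GIM5 changed by -0.48, YKE2 by -0.37 and GIM3 by -0.35. PAC10 changed by -0.25 and PFD1 by -0.23, which lay within the range of the subunits called lower. PLP2, an essential phosducin-like protein that works with TRiC, read 12.27 ± 0.0301 in hsc82-W296A and 12.69 ± 0.0269 in WT Hsc82, a change of -0.43 (adjusted p = 0.000143 by limma).

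Of 8 genes for chaperones that meet the nascent chain at the ribosome, 6 fell and 0 rose, with a median of -0.24, where 30.2% of all probe sets were lower. Under anchored scaling or median centring 8 fell, where 40.7% and 42.4% of all probe sets were lower. ZUO1 and SSZ1, the partners that form the ribosome-associated complex, changed by -0.43 and -0.39. SSB1 and SSB2, the ribosome-bound Hsp70 pair, changed by -0.25 and -0.24, and such close paralogs can share signal. SSB1 has 2 probe sets, and the dimmer one, whose ID marks it as shared between transcripts, stood at -0.10 and did not pass (adjusted p = 0.0517 by limma), so that 5 genes fell when each gene was read from its dimmest probe set. Among subunits of the nascent polypeptide-associated complex, BTT1 changed by -0.39 and EGD2 by -0.14, while EGD1, at -0.09, did not pass, nor did the Hsp70 exchange factor SSE1, at -0.13. SSE1 passed as lower with the replicate block (adjusted p = 0.0460 by limma) and after quantile normalization, at -0.20 (adjusted p = 0.00623 by limma).

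Genes for substrates of TRiC moved in both directions. Of 11, 4 rose and 4 fell, near the 36.9% higher and 30.2% lower of all probe sets. Their median was 0.10 as deposited and turned negative at -0.25 after anchored scaling, -0.019 after median centring and -0.030 after quantile normalization. After anchored scaling 2 rose and 5 fell, and 2 fell without WT Hsc82 replicate 2, without WT Hsc82 replicate 3 or without hsc82-W296A replicate 2. TUB1, the main alpha-tubulin, read 12.71 ± 0.101 in hsc82-W296A and 12.42 ± 0.0825 in WT Hsc82, a change of 0.29 (adjusted p = 0.00850 by limma) that was 0.07 and not called after anchored scaling. TUB3, the minor alpha-tubulin, read 11.82 ± 0.0625 in hsc82-W296A and 12.23 ± 0.0306 in WT Hsc82, a change of -0.41 (adjusted p = 0.000343 by limma). These 2 genes are close in sequence and their probes may share transcript. TUB4, the gamma-tubulin of the spindle pole body, changed by -0.42. CDC55, a regulatory subunit of protein phosphatase 2A, and CDC20, an activator of the anaphase-promoting complex, both WD40 proteins, changed by 0.41 and 0.36. Actin and beta-tubulin lay outside the rule for naming and are given because they are the classic substrates. ACT1 stood at 0.10 and TUB2 at -0.10, and neither passed on the deposited values, though TUB2 passed as lower at -0.34 after anchored scaling and at -0.21 after median centring.

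The cofactors that pair alpha- and beta-tubulin after release from TRiC were mostly lower. Of 6 genes, 5 fell, with a median of -0.19, where 30.2% of all probe sets were lower. Without hsc82-W296A replicate 3, 3 fell. CIN2 changed by -0.45, ALF1 by -0.37, CIN4 by -0.21, RBL2 by -0.17 and PAC2 by -0.16, each also called lower under the 3 other scalings. CIN1 stood at 0.25 without passing, with 9.55 ± 0.211 in hsc82-W296A and 9.30 ± 0.108 in WT Hsc82, and was called higher with the replicate block and at -0.15, not called, after quantile normalization.

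Chaperonin genes of the mitochondrion, related to TRiC only distantly, were not lower on the deposited values. HSP60 rose by 0.19 (adjusted p = 0.0301 by limma) and its partner HSP10 stood at 0.03. The HSP60 call ended with quantile normalization, at 0.15, with median centring, at 0.08, and with anchored scaling, at -0.11, where HSP10 was called lower at -0.29. Without any 1 of 5 arrays, the exception being hsc82-W296A replicate 1, HSP60 was also not called.

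**Figure D4:**
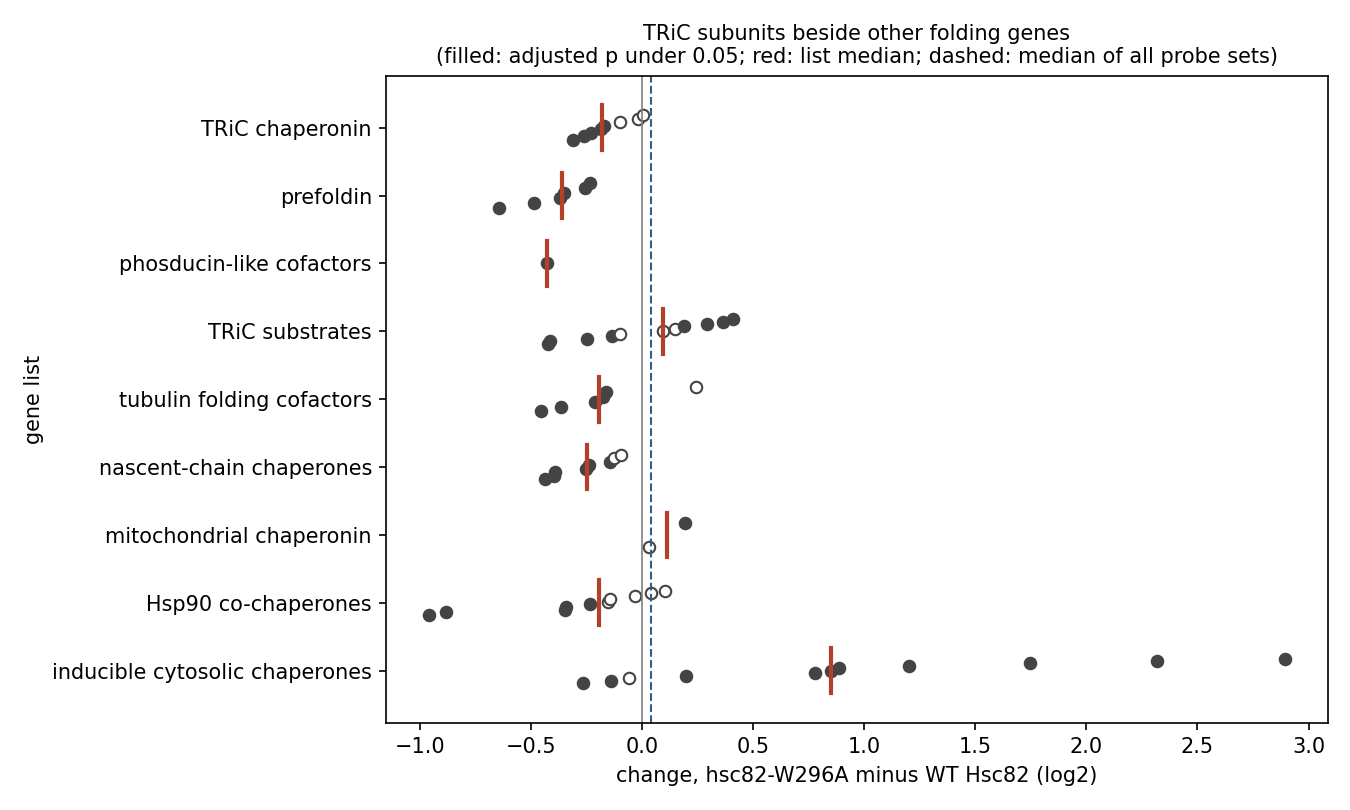
Change of each gene (x axis, hsc82-W296A minus WT Hsc82, log2, as deposited) in the TRiC subunits and 8 related lists (y axis), filled where the adjusted p was under 0.05, with red bars at list medians and a dashed line at the median of all probe sets, 0.04. The TRiC subunits lie between -0.31 and 0.0070 and the prefoldin genes between -0.64 and -0.23. The last list, of other cytosolic chaperones and heat shock genes, reaches 2.89.

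Other chaperones of the cytosol set the scale of these changes. Of 10 Hsp90 co-chaperones, 5 fell and 0 rose, where 30.2% of all probe sets were lower and 36.9% higher. Their median was -0.19 on the deposited values, close to that of the TRiC subunits, though single co-chaperones ran from -0.96 to 0.10. After quantile normalization the median was -0.30, against -0.20 for the subunits, and after anchored scaling -0.38, against -0.43. Under anchored scaling 10 co-chaperones fell, where 40.7% of all probe sets were lower. Under median centring and quantile normalization 8 fell, where 42.4% and 44.5% were lower. With the replicate block 7 fell, AHA1 (adjusted p = 0.0211 by limma) and CDC37 (adjusted p = 0.0297) being added, both named after their values were seen. CNS1 and PPT1, which bind the C-terminal end of Hsp90, changed by -0.96 and -0.88, more than any TRiC subunit. HCH1, CPR7 and SGT1 changed by -0.34, -0.35 and -0.23. In a list of 11 other cytosolic chaperones and heat shock genes, most of them inducible by heat, 8 rose and 2 fell. Their median was 0.85, and 36.9% of all probe sets were higher and 30.2% lower. SSA3 and SSA4, stress-inducible Hsp70 proteins, rose by 2.89 and 1.74. The heat shock genes HSP26 and HSP12 rose by 2.32 and 1.20, and the disaggregase HSP104 by 0.89. The 0 of 8 TRiC subunits called higher held under all 20 alternatives, though not all of these could alter it. These 5 stress genes were called higher under the 3 other scalings. Among the nascent-chain chaperones and the co-chaperones, too, 0 genes were higher at an unadjusted p under 0.05. Differences between the lists were not tested.

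Genes outside the complex were ranked by how closely their 6 array values followed the mean of the 8 subunits, among 5128 genes above background. The closest were WWM1, a WW-domain protein, with a Pearson coefficient of 0.998, PPR1, an activator of pyrimidine synthesis genes, at 0.997, NMD5, a nuclear import carrier, at 0.997, AHK1, a scaffold of osmosensing, at 0.996, and ABF1, a DNA-binding regulator of many promoters, at 0.996. WWM1 changed by -0.23, ABF1 by -0.26, AHK1 by -0.35, PPR1 by -0.49 and NMD5 by -0.50. Of the subunits, CCT8 was closest to the mean of the other 7, at 0.999, and CCT6 farthest, at 0.202. These coefficients describe 6 arrays in 2 groups that share their scaling, and the difference between the groups is part of them.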

How the data were processed

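Total RNA from 3 hsc82-W296A and 3 WT Hsc82 cultures was extracted with Trizol and labelled as cRNA, per the labels. The deposited values are log2 signal per probe set, judged from their range. How the authors corrected, normalized and summarized them is not given in the sources used here, although the submitters' processing notes list limma. Probe sets were named from the platform annotation, with symbols updated by gene ID through a RefSeq gene table of assembly R64. Of 10928 probe sets, 5498 belonged to 5449 S. cerevisiae genes and 1746 to another species. A gene was represented by its probe set with the highest mean. Arrays have no depth, and their number limits the precision. The lmFit and eBayes functions of limma 3.58.1 in R 4.3.3 gave hsc82-W296A minus WT Hsc82 for every probe set, with Benjamini-Hochberg adjustment over 5498 probe sets. Exact permutation tests used scipy 1.17.1.

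All 8 subunits were named. Every member of a list of at most 8 genes could be named, and in longer lists the 5 with the smallest adjusted p, besides HSC82, HSP82 and the 5 genes most like the mean of the subunits. The members and lists were chosen with earlier results of these data known. Deviations of same-numbered arrays from their group means correlated at 0.405, 0.148 and 0.364, each above 0.1. Among differently numbered arrays, hsc82-W296A 3 with WT Hsc82 2 stood at 0.1385 and hsc82-W296A 2 with WT Hsc82 3 at 0.107. These were also above 0.1, and the remaining values were negative. That measure therefore does not settle whether the numbers pair the arrays, and no label states a pairing. The reported fit has no block, and the replicate block is an alternative. The scripts were tested on simulated data. Alternatives were the replicate block, quantile normalization, median centring, anchored scaling (the other-species and S. cerevisiae medians set equal across arrays), other probe set choices, other variance priors and leaving out arrays. Removal of trends with gene length or signal, and leaving out both arrays numbered 1, were added after seeing the data.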

Additional observations from a re-analysis of the deposited data

How the results depend on the processing

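Of 20 alternatives, 3 of them chosen after seeing the data, 15 gave 4 or 5 subunits called lower, 2 gave 6, 2 gave 7 and 1 gave 8, and 0 subunits were called higher in any. Each subunit has 1 probe set, so taking the lowest probe set per gene could not alter these counts. Other variance priors or other sets of probe sets tested could not alter the change of a subunit, which is fitted from its own values. They could alter only its SE and adjusted p. After anchored scaling, 8 subunits were lower, the median change of the subunits was -0.43, and TCP1, CCT5 and CCT6 stood at -0.27, -0.37 and -0.23. In that setting 10 co-chaperones were lower, 2 substrate genes were higher, and of the mitochondrial chaperonin genes 0 were higher and 1 lower. After median centring the median was -0.29, TCP1 -0.13, CCT5 -0.22 and CCT6 -0.11, with 8 co-chaperones lower and 0 mitochondrial chaperonin genes higher. After quantile normalization CCT5 was -0.14 and CCT6 -0.016, again with 8 co-chaperones lower and 0 mitochondrial chaperonin genes higher. The median of the subunits was -0.20 there, and its gap to the median of all probe sets was -0.11, against -0.22 as deposited. Of the 8 subunits, 6 lay below the median of all probe sets, against 8 as deposited. With the trend on gene length removed the median was -0.29, TCP1 -0.14, CCT5 -0.23 and CCT6 -0.11, with 1 co-chaperone higher, 0 mitochondrial chaperonin genes higher and 1 other cytosolic chaperone lower. With the trend on signal removed the median was -0.13 and TCP1 0.029, with 1 other cytosolic chaperone lower. The gap to the median of all probe sets was -0.13 there, and 6 subunits lay below that median. With an intensity trend in the prior CCT5, at -0.10, passed (adjusted p = 0.0485). Without moderation 1 co-chaperone and 0 mitochondrial chaperonin genes were higher, and with all probe sets in the adjustment 1 other cytosolic chaperone was lower. The replicate block made 1 tubulin cofactor gene higher, 7 co-chaperones lower and 7 nascent-chain chaperones lower, and changed no call on a subunit, where the median was -0.18. Without both arrays numbered 1, 1 co-chaperone and 1 tubulin cofactor were higher and 1 other cytosolic chaperone was lower. The cause of these differences was not tested.

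Leaving out 1 array at a time, CCT6 ranged from -0.061 to 0.071, CCT7 from -0.20 to -0.15 and TCP1 from -0.040 to 8.73e-05. Subunits lower ranged from 4 to 5, prefoldin genes lower from 5 to 6, substrate genes lower from 2 to 4, tubulin cofactors lower from 3 to 5 and higher from 0 to 1, co-chaperones higher from 0 to 1, other cytosolic chaperones lower from 1 to 2, and mitochondrial chaperonin genes higher from 0 to 1. The share of called probe sets that were higher was 44.1% after anchored scaling, 42.3% after median centring and 39.0% after quantile normalization, against 55.0% as deposited. The median change over S. cerevisiae probe sets was -0.06, -0.07 and -0.09 in these 3 settings, against 0.04 as deposited. With all 10928 probe sets of the array in the fit, 3637 were lower, against 1660 of the 5498 S. cerevisiae probe sets. The 2 counts thus have unlike totals.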
